A study of Mus musculus with 2 samples.

Results

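Dmrtb1 (also called Dmrt6) and Dmrt1 are 2 of the 41459 genes counted in this single-cell RNA sequencing study of mouse testis, and both belong to the DMRT family of DM-domain transcription factors. Both were taken by symbol. Dmrtb1 was selected on its UMI level over all barcodes, which was much higher in wild-type than in knockout, so that difference is given only as a description. The study profiled dissociated whole testes of mice aged 55 days, with 1 wild-type library (WT, Rad21l+/+) and 1 library from a mouse lacking the meiotic cohesin subunit RAD21L (RAD21L KO, Rad21l-/-, here KO). The labels do not describe the allele, and each genotype is 1 library, so there is no replicate error and no test, and every difference is one between these 2 libraries. Levels are given as UMIs (unique molecular identifiers, each standing for 1 captured transcript) scaled to 1000000 UMIs of the library or cell class (CPM), with 95% intervals in parentheses that cover counting error only.

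DM-domain factors bind DNA through a zinc-containing motif and act in sex determination and in the germ line. DMRT1 is made in Sertoli cells, where it helps keep the male fate by holding down female-pathway genes such as Foxl2, and in spermatogonia, where it holds back entry into meiosis and restrains Stra8. DMRTB1 is known in the mouse from late differentiating spermatogonia, where it helps to close the spermatogonial programme as cells turn to meiosis.

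There were 33096309 UMIs over 5415 barcodes in WT and 28001992 UMIs over 7118 barcodes in KO. After filtering, 5400 and 6381 cells remained, with medians of 2230.5 and 3460 UMIs, and 14 barcode sequences occurred in both libraries. Cells were placed into classes by marker genes that did not include either DMRT gene. In the Sertoli-gated cells of each library all 17 Sertoli markers were detected, and in the differentiating spermatogonia all 12 of theirs. The gate used these same markers, so their detection and the lead of the own-class score follow from it. Among the 10 genes most raised in a class over the other cells of its library, own markers numbered 0 for Sertoli cells in both libraries. For differentiating spermatogonia they numbered 0 in WT and 1 in KO. The median marker score of differentiating spermatogonia was 1.23 in WT and 1.24 in KO for their own class, and 0.355 and 0.542 for the next, preleptotene and leptotene. Of the targeted gene, Rad21l, the WT library had 82 UMIs and the KO library 111. In cells gated as preleptotene and leptotene its level was 103 CPM (75.0–139) in WT, above the 23.5 CPM (17.4–31.1) of KO. Where its reads lie relative to the deletion is not given in the sources used here.

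A promoter window of Dmrtb1 is shown because the results that follow turn mainly on this gene. The window spans chr4:107684181-107684480 on the minus strand (GRCm38.p6, from RefSeq), and runs from 250 bases before to 50 bases after 1 of the gene's annotated starts. Capitals mark matches to the core letters bound by MYB proteins, AACNG, on either strand.
Dmrtb1: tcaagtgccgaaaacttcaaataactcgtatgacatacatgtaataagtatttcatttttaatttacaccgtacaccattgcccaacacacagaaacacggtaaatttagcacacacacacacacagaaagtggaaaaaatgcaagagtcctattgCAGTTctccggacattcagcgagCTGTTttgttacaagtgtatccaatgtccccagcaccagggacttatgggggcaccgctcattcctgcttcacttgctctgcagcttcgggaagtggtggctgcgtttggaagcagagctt
The window has 2 such matches and 3 matches to the E-box letters CANNTG. Of 32851 RefSeq promoter windows of the same length, 80.3% hold the MYB letters and 72.3% the E-box letters, so both are common. The DMRT core letters ACANTGT, searched on both strands, have 0 matches in this window and occur in 7.54% of all windows. The window of another annotated start, chr4:107683540-107683839, is not printed. It has 3 matches to the MYB letters, 3 to the E-box letters and 0 to the DMRT letters.

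Over all barcodes, Dmrtb1 had 15183 UMIs in WT and 477 in KO, or 459 CPM (451–466) and 17.0 CPM (15.5–18.6). A UMI of it was seen in 3025 WT barcodes and 356 KO barcodes, with at most 90 in a WT barcode and at most 4 in a KO barcode. Dmrt1 lay the other way, at 406 UMIs in WT and 2410 in KO, or 12.3 CPM (11.1–13.5) and 86.1 CPM (82.7–89.6), a KO to WT ratio of 7.02 (6.31–7.81). Such gaps were common over all barcodes, where 34.1% of 23001 genes with at least 20 UMIs in all were past 2-fold in the WT direction and 43.3% in the KO direction. The make-up of the libraries moved with them: 71.1% of kept WT cells were gated as pachytene to elongating, against 0 KO cells, and somatic classes made up 1.61% of the WT cells but 60.1% of those from KO. In whole-library sums, a change in the mix of cells and a change in RNA per cell cannot be told apart, so the members are described by class below.

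In the WT library most Dmrtb1 UMIs lay in late germ cells, which also gave most of the library's UMIs of all genes. The classes from pachytene to elongating together had 88.7% of its UMIs in kept cells. Their joint level was 483 CPM (474–491), near the 459 CPM of the whole library. Cells gated as pachytene and diplotene spermatocytes, 644 in number, had 9565 UMIs of it, or 695 CPM (681–709), which is 63.0% of its UMIs in all kept WT cells. These spermatocytes held 13766368 of the 33079766 UMIs of all genes in kept WT cells, and their Dmrtb1 level was 151% of the library level. Round spermatids, the haploid cells after meiosis, had 586 CPM (561–612; 740 cells), and the spermatocyte level was 1.19 times theirs (1.13–1.24). This order depends on how cells are classed. In Leiden clusters named from the same markers, round spermatids had 760.4 CPM (732–790.0; 225 cells, median 14650 UMIs). Pachytene and diplotene cells had 670 CPM there (656–684; 403 cells, median 30761 UMIs). The cluster with most of the round-gated cells (383 of 740) stayed unnamed, with 369 CPM (344–396) and a median of 1809 UMIs. The named round spermatid cluster thus stands for deeper cells only. Elongating spermatids had 173 CPM (165–181; 2455 cells). A WT pachytene and diplotene cell carried 14.9 UMIs of Dmrtb1 on average, with a median of 6.5 and at most 90.

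Among pachytene- and diplotene-gated cells the level was higher in cells with more UMIs. Split by depth into 4 bins of 161 cells, Dmrtb1 was at 452 CPM (374–541), 476 CPM (442–513), 546 CPM (524–568) and 834 CPM (814–855) from the shallowest to the deepest bin. Every cell of the 2 deeper bins had a UMI of it, with medians of 13 and 39 per cell. Round spermatids showed the same contrast only at the top, with 337 to 371 CPM in the 3 shallower bins and 684 CPM (652–717) in the deepest. Elongating spermatids went the other way, from 407 CPM (362–456) in the shallowest bin to 108 CPM (100.2–117) in the deepest. The shallowest bins of the 3 classes thus lay between 340 and 452 CPM, somewhat below the 459 CPM of the whole library, and the deepest bins lay far apart.

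**Figure D1:**
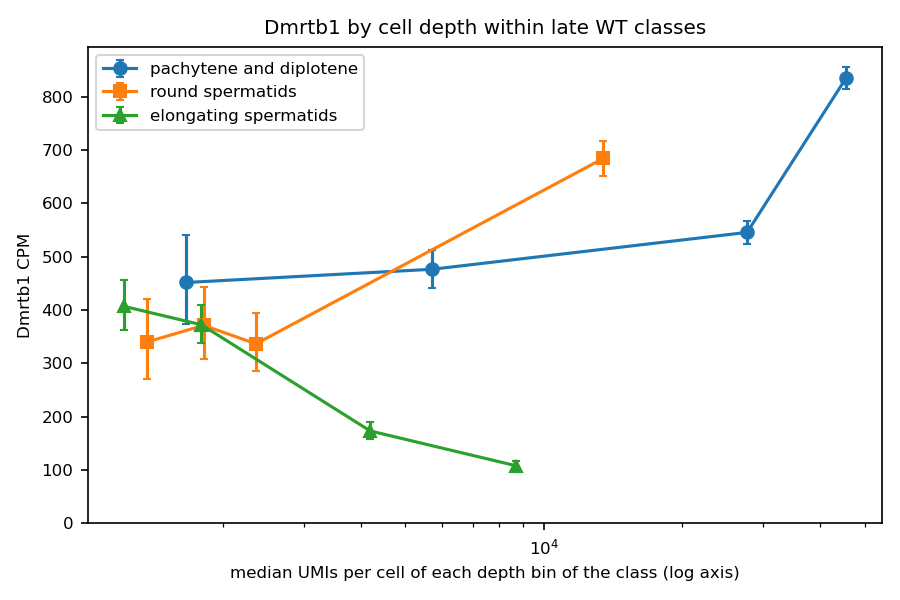
Dmrtb1 level (CPM, y axis) in WT cells against the median UMIs per cell (x axis, log) of the 4 depth bins of each late class; bars are 95% Poisson intervals for counting error. The deepest bins sit at 834 CPM in pachytene and diplotene cells, 684 CPM in round spermatids and 108 CPM in elongating spermatids.

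Early germ cells and Sertoli cells of the WT library also showed Dmrtb1 UMIs, at lower levels. Differentiating spermatogonia had 209 CPM (174–249; 87 cells), preleptotene and leptotene cells 197 CPM (157–244; 91 cells) and zygotene cells 134 CPM (86.8–198; 30 cells). Sertoli-gated cells, the nurse cells of the tubule, had 157 CPM (119–203; 62 cells). In the order of levels below round spermatids, no neighbouring pair among these 4 classes and the elongating spermatids had a ratio whose interval left out 1, but differentiating spermatogonia lay above zygotene cells at 1.56 (1.01–2.50). The ratio of differentiating spermatogonia to Sertoli cells was 1.33 (0.969–1.85), and that of pachytene and diplotene cells to Sertoli cells 4.43 (3.42–5.84).

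Values that bear on free RNA in the WT library are these. The Sertoli-gated cells held Dmrtb1 at 34.2% of its whole-library level. In the same cells the markers of round spermatids had a median of 35.6% of their library level (12 genes), those of pachytene and diplotene cells 25.9% (13 genes) and those of elongating spermatids 19.9% (10 genes). Of the 62 Sertoli-gated WT cells, 27 fell into a Leiden cluster named for elongating spermatids. In the Sertoli-named WT cluster of 37 cells Dmrtb1 was at 121 CPM (87.3–162). In WT differentiating spermatogonia Dmrtb1 stood at 45.5% of its library level, above the medians of the same markers there, which were 32.9% for round spermatids, 24.0% for pachytene and diplotene cells and 17.6% for elongating spermatids. In preleptotene and leptotene cells Dmrtb1 stood at 43.0%, beside 40.04%, 33.9% and 25.0% for these markers in the same order, and in zygotene cells at 29.2%, beside 31.8%, 52.4% and 18.9%. The highest single markers, in that order, stood at 67.7%, 102% and 47.6% in Sertoli cells. In differentiating spermatogonia they stood at 57.1%, 57.1% and 47.7%. Dmrtb1 thus lay within the range of single markers in both classes. Dmrtc2, which was at 91.8 CPM in WT pachytene and diplotene cells, had 1 UMI in WT Sertoli cells, or 2.71 CPM (0.0685–15.1), against 59.9 CPM in the library. The levels of the WT early germ classes were not told apart from the Sertoli level by their ratios, and the part of free RNA in either was not tested.

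The KO library had 0 cells gated as pachytene, round or elongating, and its somatic cells were almost empty of Dmrtb1. Sertoli-gated KO cells had 15 UMIs in 1789 cells, or 1.63 CPM (0.913–2.69). Leydig cells had 1.82 CPM (0.874–3.35), stromal cells 0.769 CPM (0.0195–4.29) and myeloid cells 4.20 CPM (1.36–9.79). Myoid and endothelial cells had 0 UMIs, which allows up to 8.29 and 14.7 CPM.

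Against those low somatic levels Dmrtb1 stood out in KO differentiating spermatogonia. These 439 cells had 232 UMIs, or 88.0 CPM (77.0–100.1), which is 48.9% of the gene's UMIs in kept KO cells. Undifferentiated spermatogonia, the stem and progenitor cells, had 5 UMIs in 124 cells, or 5.29 CPM (1.72–12.3), and the ratio between the classes was 16.6 (7.03–51.7). Preleptotene and leptotene cells, at the entry into meiosis, had 38.4 CPM (30.5–47.8; 528 cells), and the differentiating level was 2.29 times theirs (1.77–2.99). In Leiden clusters the preleptotene and leptotene level was 20.2 CPM (13.3–29.4), below the 31.9 CPM (22.8–43.4) of zygotene cells. Zygotene cells had 30.8 CPM (20.9–43.7; 199 cells), not distinct from the preceding stage at a ratio of 1.25 (0.814–1.95). In KO, differentiating spermatogonia were thus highest, early prophase cells came next, and undifferentiated spermatogonia and somatic cells were lowest. The differentiating level was 53.9 times the Sertoli level (32.0–97.9).

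Dmrt1 kept 1 order of levels in both libraries, with differentiating spermatogonia first, then preleptotene and leptotene cells, then Sertoli cells, although in WT the last step was not resolved, at a ratio of 1.23 (0.744–2.05). Differentiating spermatogonia had 275 CPM (235–320) in WT against 258 CPM (239–278) in KO, a WT to KO ratio of 1.07 (0.894–1.26). Preleptotene and leptotene cells had 96.2 CPM (69.0–131) and 119 CPM (105–135), with a ratio of 0.808 (0.566–1.13). Sertoli cells had 78.5 CPM (52.5–113) and 75.1 CPM (69.6–80.9), with a ratio of 1.05 (0.695–1.51). All 3 intervals hold 1, but they reach from 0.566 to 1.51, so they do not show that the levels were equal. Undifferentiated spermatogonia of KO had 207 CPM (179–238), below the differentiating level by a ratio of 1.24 (1.06–1.47) and above the preleptotene and leptotene level by 1.74 (1.44–2.11). The WT library had only 17 undifferentiated cells, with 21 UMIs of Dmrt1, and no ratio is given.

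From zygotene on, Dmrt1 was low. WT zygotene cells had 0 UMIs in 30 cells, which allows up to 16.1 CPM, and KO zygotene cells had 11.9 CPM (6.16–20.8). WT pachytene and diplotene cells had 1.38 CPM (0.831–2.16), round spermatids 3.70 CPM (1.97–6.32) and elongating spermatids 3.95 CPM (2.85–5.34). The level in WT differentiating spermatogonia was 199 times that of pachytene and diplotene cells (124–339). In KO, somatic cells other than Sertoli cells together had 13.3 CPM (11.0–16.0), so the KO zygotene level lay no higher than that. Sertoli cells lay above each of these, by 5.88 times for Leydig cells, whose inverse ratio was 0.170 (0.131–0.218), and by 2.26 times for myoid cells (1.29–4.40), the contractile cells of the tubule wall. Leydig cells had 12.8 CPM, myoid cells 33.2 CPM (17.1–57.9), myeloid cells 17.6 CPM, stromal cells 7.69 CPM and endothelial cells 4.91 CPM.

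**Figure D2:**
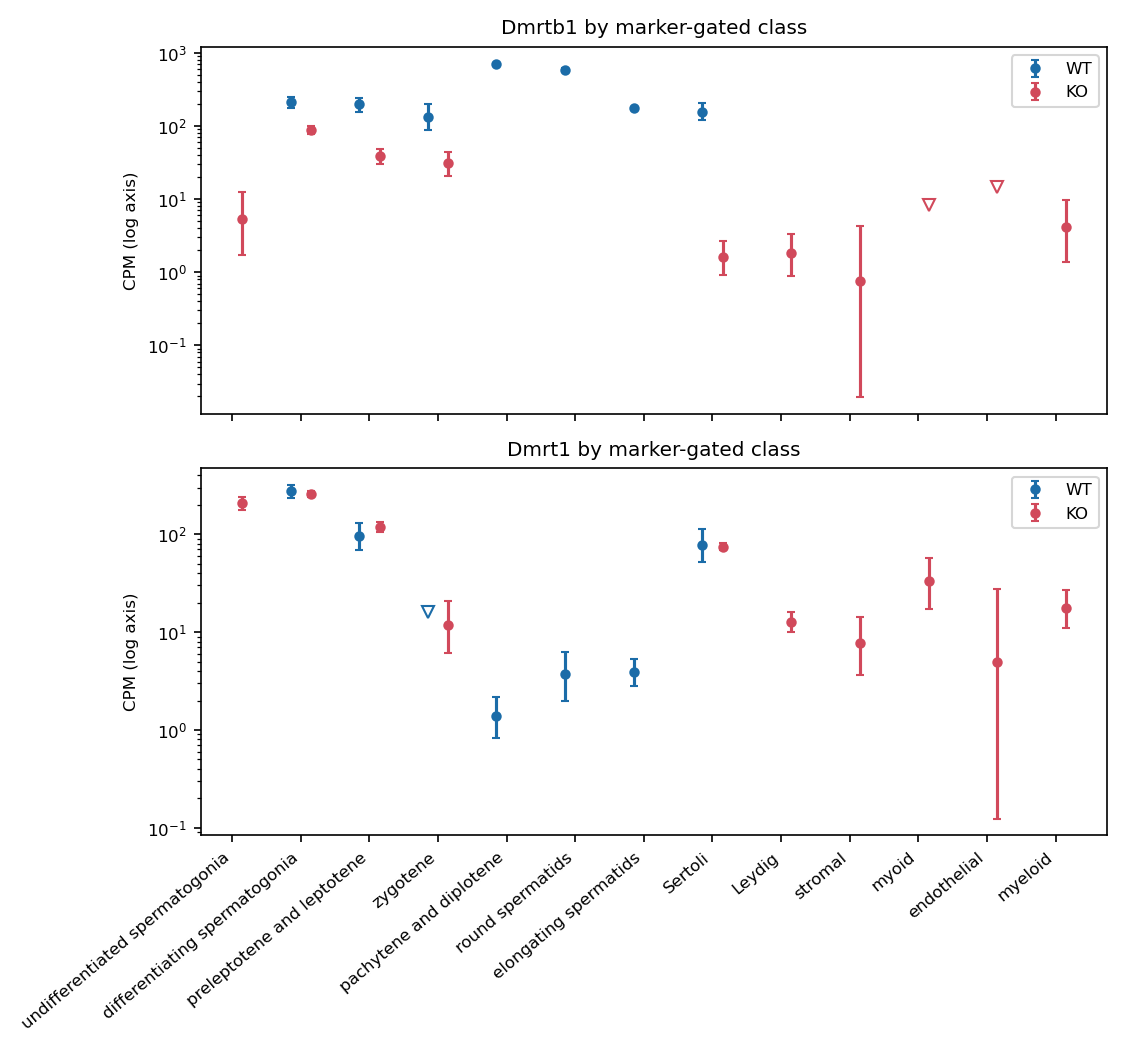
Levels of Dmrtb1 (top) and Dmrt1 (bottom) in CPM (log axis) by marker-gated class with at least 20 cells, WT in blue and KO in red; bars are 95% Poisson intervals and open triangles mark the limit that a count of 0 allows. By these gates Dmrtb1 is highest at 695 CPM in WT pachytene and diplotene cells and at 88.0 CPM in KO differentiating spermatogonia. In Leiden clusters its highest WT level is 760.4 CPM, in a round spermatid cluster of 225 deeper cells. Dmrt1 is highest at 275 and 258 CPM in the differentiating spermatogonia of both libraries.

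Within the classes present in both libraries, Dmrtb1 as counted was higher in WT throughout. The WT to KO ratio was 2.37 (1.90–2.96) in differentiating spermatogonia, 5.13 (3.73–7.06) in preleptotene and leptotene cells, 4.35 (2.46–7.62) in zygotene cells and 96.2 (53.8–183) in Sertoli cells. The contrast was thus greatest in the somatic class. In an alternative added with the data in view, the Sertoli level of the same library was taken off each class. Differentiating spermatogonia were then left with 52.0 CPM in WT against 86.4 CPM in KO, the opposite direction as point values. Preleptotene and leptotene cells were left with 40.2 CPM against 36.8 CPM, and WT zygotene cells fell below 0. These remainders have no interval. In WT, the ratio of differentiating spermatogonia to Sertoli cells held 1, at 1.33 (0.969–1.85). With the lower 121 CPM (87.3–162) of the Sertoli-named WT cluster, more would be left in each WT class. No direction of Dmrtb1 between the libraries is therefore read within these classes. The share of genes past 2-fold in the WT and KO directions was 8.93% and 6.91% in differentiating spermatogonia, 10.7% and 10.4% in preleptotene and leptotene cells, 10.4% and 14.9% in zygotene cells and 13.7% and 6.51% in Sertoli cells.

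To compare shares of cells across depths, each cell was thinned to 2000 UMIs and shallower cells were left out. In WT this left out 354 of 740 round spermatids, 1017 of 2455 elongating spermatids, 135 of 644 pachytene and diplotene cells, 22 of 62 Sertoli cells and 5 of 87 differentiating spermatogonia. In KO it left out 626 of 1789 Sertoli cells and 25 of 439 differentiating spermatogonia. The shares thus describe the deeper cells, and in the 3 late WT classes the Dmrtb1 level changed with depth. A Dmrtb1 UMI was then found in 65.8% of WT pachytene and diplotene cells (61.5–69.9; 84.5% without thinning) and in 57.3% of WT round spermatids (52.1–62.2; 57.0% without thinning). In WT Sertoli cells, given for comparison, the share was 22.5% (10.8–38.5), with differentiating spermatogonia at 28.0% (18.7–39.1) and elongating spermatids at 26.3% (24.0–28.6). These last shares overlapped. In KO the share was 12.8% (9.74–16.4) in differentiating spermatogonia, 6.19% (4.16–8.83) in preleptotene and leptotene cells and 0.172% (0.0208–0.620) in Sertoli cells.

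For Dmrt1 the share at 2000 UMIs was 42.7% (31.8–54.1) in WT and 39.6% (34.9–44.5) in KO differentiating spermatogonia. In Sertoli cells it was 10.0% (2.79–23.7) in WT, where 40 cells reached that depth, and 15.3% (13.3–17.5) in KO, against 1.96% (1.08–3.27) in KO Leydig cells. Sertoli cells had median depths of 6730 UMIs in WT and 5388 in KO, and KO Leydig cells 6817.5, before thinning. Dmrt1 thus lay above the Leydig level in KO Sertoli cells in these shares as in the levels.

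**Figure D3:**
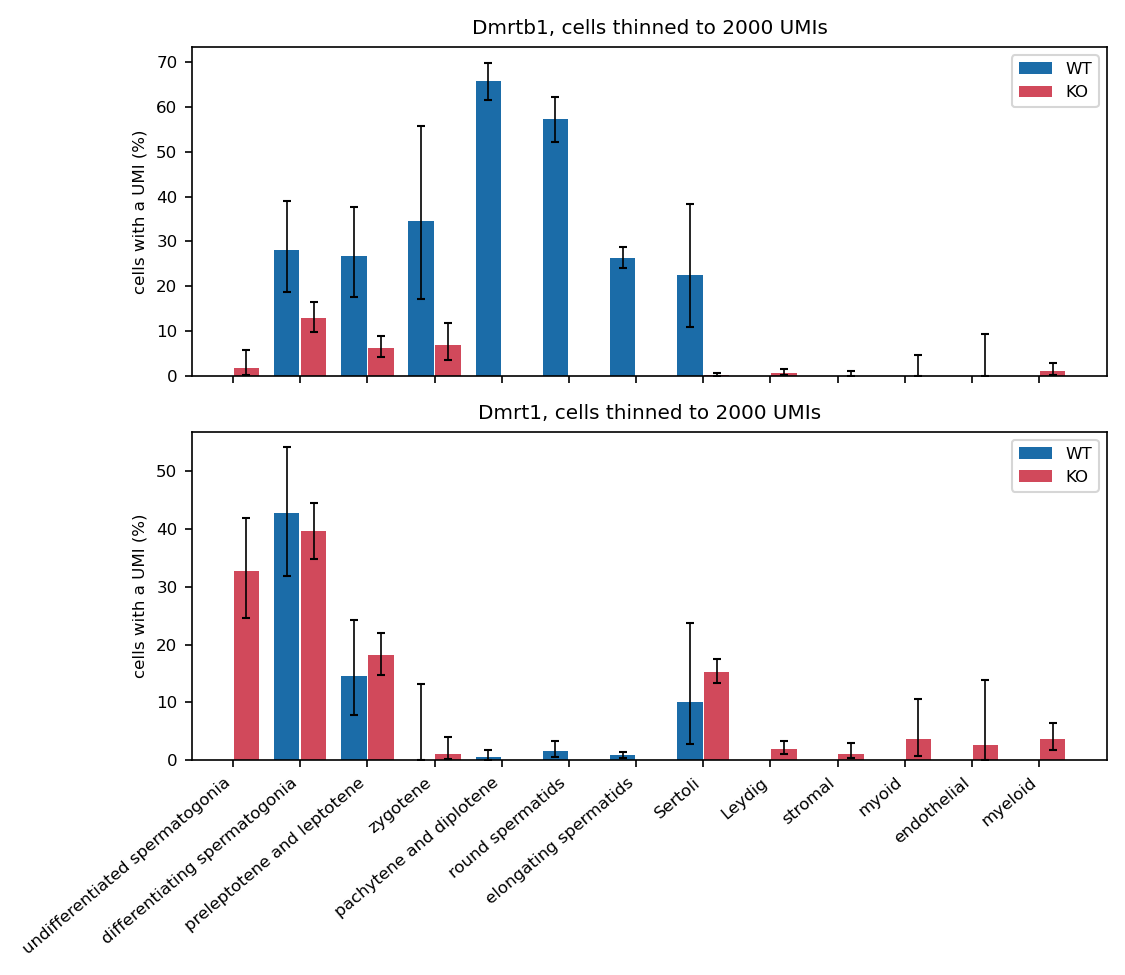
Share of cells (%, y axis) with a UMI of Dmrtb1 (top) or Dmrt1 (bottom) after thinning each cell to 2000 UMIs, by class, WT in blue and KO in red; bars are exact 95% binomial intervals. Dmrtb1 is seen in 65.8% of WT pachytene and diplotene cells and 12.8% of KO differentiating spermatogonia, and Dmrt1 in 39.6% of the latter.

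The members were not exclusive of each other in single cells. Of KO differentiating spermatogonia at 2000 UMIs, 53 had a Dmrtb1 UMI, and Dmrt1 was seen in 39.6% of these (26.5–54.0) and in 39.6% of the other 361 (34.5–44.9). In KO preleptotene and leptotene cells Dmrt1 was seen in 35.7% of the 28 cells with Dmrtb1 (18.6–55.9) and in 17.0% of the 424 without (13.5–20.9). At 4000 UMIs the shares were 52.9% of 34 cells (35.1–70.2) and 34.6% of 185 cells (27.8–41.9). The intervals overlap at both depths, which does not show that the shares were equal. In a separate draw of 2000 UMIs per cell, cells were also split by a UMI of Stra8, Kit, Sohlh1, Zbtb16, Meiosin, Rhox13 or Uchl1. In KO, all 13 ratios of Dmrtb1 and all 13 of Dmrt1 between cells with and without such a UMI, over both classes, had intervals that hold 1. For Stra8, which starts the meiotic programme, the ratio in KO differentiating spermatogonia was 0.719 (0.438–1.18) for Dmrtb1 and 1.23 (0.921–1.64) for Dmrt1. In WT, 13 of 14 ratios of each member held 1, with Dmrtb1 in differentiating spermatogonia higher beside Kit at 2.28 (1.13–4.66) and Dmrt1 higher beside Sohlh1 at 2.30 (1.19–4.35), on 30 and 19 cells with the partner. Sparse counts limit these splits, since only 71 thinned Dmrtb1 UMIs stood behind the KO differentiating class.

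Of the other DMRT genes, Dmrta1 and Dmrtc1a were highest in Sertoli cells among the classes with at least 20 cells. In Sertoli cells Dmrta1 was at 162 CPM (124–209) in WT against 170 CPM (162–179) in KO, and Dmrtc1a at 262 CPM (213–320) and 207 CPM (198–217). In KO germ classes Dmrta1 was at 6.35 to 13.4 CPM and Dmrtc1a at 16.3 to 27.8 CPM. Dmrtc2 (Dmrt7), which male germ cells need to pass pachytene, was at 172 CPM (117–242) in WT zygotene cells and 91.8 CPM (86.8–97.0) in WT pachytene and diplotene cells. In KO, Dmrtc2 was at 6.83 CPM in differentiating spermatogonia, 56.7 CPM (46.9–67.9) in preleptotene and leptotene cells and 68.6 CPM (53.4–86.8) in zygotene cells. In KO, Dmrtc2 was thus low where Dmrtb1 was highest and higher in the meiotic classes that follow. In KO, Dmrt3 was at 7.40 CPM (2.98–15.3) in undifferentiated and 8.72 CPM (5.53–13.1) in differentiating spermatogonia, 1.99 CPM (0.241–7.18) in zygotene cells and 0.544 CPM (0.177–1.27) in Sertoli cells. Dmrt2 had 3 and 14 UMIs in all barcodes of WT and KO, and Dmrtc1c1 and Dmrtc1c2 had 0.

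Of the 11 family members, 6 had enough UMIs in differentiating spermatogonia, with 2 past 2-fold in the WT direction (Dmrtb1 and Dmrtc2) and 2 in the KO direction (Dmrta1 and Dmrtc1a), all but Dmrtb1 on 13 or fewer WT UMIs. Their median log2 ratio of WT to KO was -0.16, beside -0.12 over all 11167 genes. In Sertoli cells 5 had enough UMIs, and 1 (Dmrtb1) was past 2-fold, with a median of 0.06 beside 0.00 over all 13164 genes.

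The next list holds genes that govern the turn from mitosis to meiosis, where DMRT1 and DMRTB1 act. In differentiating spermatogonia 19 of its 23 genes had enough UMIs, and 18 of them were within 2-fold, while 8.93% and 6.91% of all genes were past it in the WT and KO directions, with a median log2 ratio of 0.00 against -0.12 for all genes. The list shares 14 genes with the markers that set the classes, so near-equal levels of those are in part a result of the gating. Kit, the receptor that marks differentiation, was at 296 and 278 CPM in WT and KO, Sohlh1, a regulator of spermatogonial differentiation, at 125 and 115 CPM, and Uchl1 at 724 and 740 CPM. Some WT to KO ratios within 2-fold had intervals that left out 1. These were Lin28a at 1.95 (1.19–3.12), Ccnd1 at 1.31 (1.10–1.55) and Sall4 at 0.577 (0.378–0.853). Stra8 was the gene past 2-fold, with 285 CPM (244–330) in WT against 617 CPM (587–647) in KO. It is itself a gate marker of preleptotene and leptotene cells. The median score for that class was 0.355 in WT and 0.542 in KO differentiating spermatogonia. A change in Stra8 and a shift in which cells were gated cannot be told apart here. In preleptotene and leptotene cells Stra8 was at 946 and 1070 CPM, and its cofactor Meiosin at 394 and 361 CPM, and 16 of 17 listed genes were within 2-fold (10.7% and 10.4% of all genes were past it), with Cyp26b1, an enzyme that breaks down retinoic acid, past it on 3 WT UMIs. In zygotene cells 6 of 8 were within it, near the share of all genes, of which 10.4% and 14.9% were past it, with Sohlh2 higher in WT (107 and 45.7 CPM) and Rhox13 higher in KO (26.8 and 169 CPM).

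Of the genes that hold Sertoli cells to the male fate, 12 of 16 measured members were within 2-fold in the Sertoli cells of both libraries. This is near the share of all genes, of which 13.7% and 6.51% were past it, and says nothing particular of the list. Sox9, the male-determining factor, was at 455 and 625 CPM in WT and KO, Wt1 at 308 and 314 CPM, Gata4 at 108 and 106 CPM and Dhh, a signal to the interstitial cells, at 133 and 142 CPM. Within 2-fold, the WT to KO ratios of Sox9, 0.728 (0.620–0.848), and Gata1, 0.655 (0.443–0.935), had intervals that left out 1. Past 2-fold were Ptgds, a prostaglandin D synthase (755 and 89.8 CPM), and Cyp26b1 (37.9 and 18.5 CPM) in the WT direction, and Wnt4 (2.71 and 41.4 CPM) and the FSH receptor Fshr (16.2 and 37.0 CPM) in the KO direction. The WT values of the last 3 rest on 14, 1 and 6 UMIs. Foxl2, a female-fate gene that DMRT1 holds down, had 0 UMIs in WT Sertoli cells, which allows up to 8.12 CPM, and 3 UMIs in KO Sertoli cells, or 0.326 CPM (0.0673–0.954). The median log2 ratio of the list was -0.26, beside 0.00 over all genes, and 5 of the 20 listed genes also serve as Sertoli markers.

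In germ classes part of the Sertoli list was past 2-fold in the KO direction, with 5 of 9 measured members in differentiating spermatogonia (6.91% of all genes), 7 of 10 in preleptotene and leptotene cells (10.4%) and 2 of 6 in zygotene cells (14.9%), and 0 in the WT direction. Sertoli markers summed to 0.145% of UMIs in KO differentiating spermatogonia and 0.0291% in WT ones. Ptgds was at 6.58 CPM in WT against 44.8 CPM in KO differentiating spermatogonia. It is not mainly a Sertoli transcript in KO, where 826 of its 17218 UMIs over all barcodes lay in Sertoli-gated cells. The part of free RNA, from Sertoli or other cells, in these values was not tested.

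**Figure D4:**
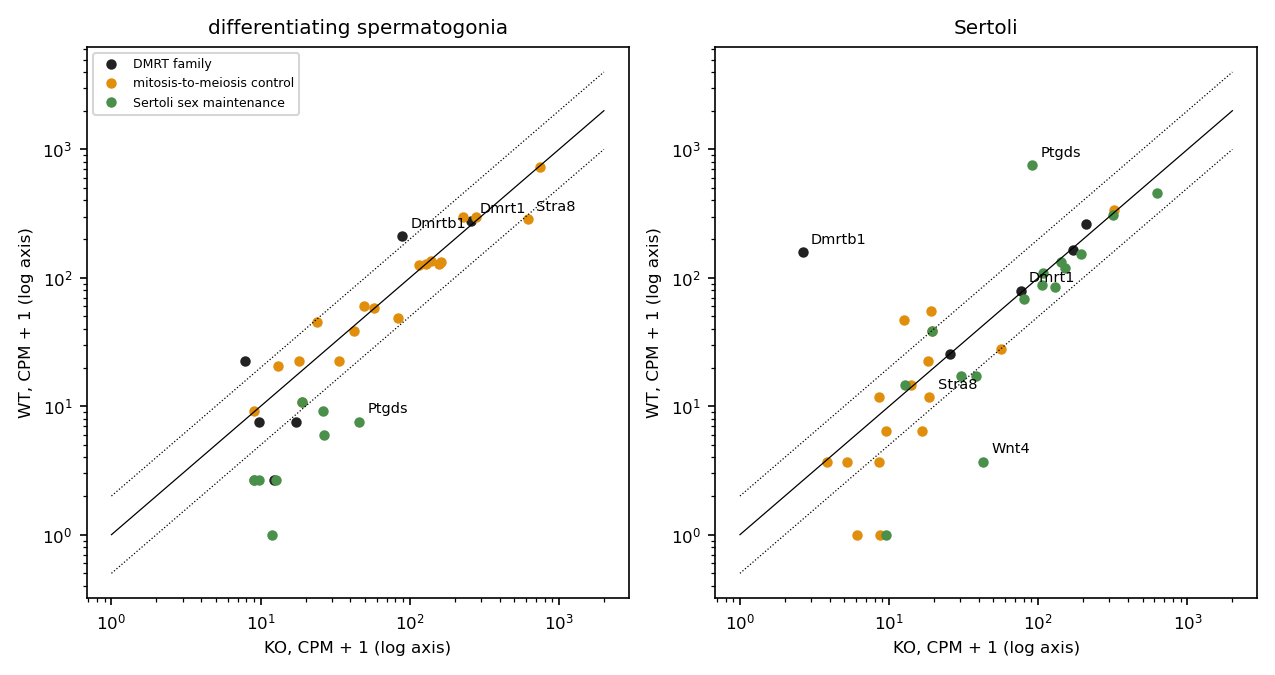
Levels in WT (y axis) against KO (x axis), both in CPM plus 1 on log axes, of the listed genes with at least 20 UMIs in differentiating spermatogonia (left) and Sertoli cells (right); the solid line marks equal levels and the dotted lines 2-fold. Dmrt1 lies on the line in both panels (275 and 258 CPM, 78.5 and 75.1 CPM), while Dmrtb1 lies above it, at 157 and 1.63 CPM in Sertoli cells.

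The genes most like each member were ranked by Pearson's r of log2(CPM + 1) over the 15 class sums with at least 50 cells, among 14597 genes. For Dmrtb1 they were Dll3 (r = 0.97), C2cd6, Cdkn3, Cep72 and Ccdc96. All 5 were high in WT pachytene and diplotene cells, as Ccdc96 at 441 CPM and C2cd6, a sperm calcium-channel-associated protein, at 641 CPM. Dll3, C2cd6 and Cdkn3 were higher still in round spermatids, as Cdkn3 at 362 CPM against 218 CPM. In KO differentiating spermatogonia C2cd6 was at 10.2 CPM and Cdkn3 at 21.2 CPM, against 16.8 and 54.3 CPM in KO preleptotene and leptotene cells. All 5 were lower in the former class than in the latter, unlike Dmrtb1 by the gates. For Dmrt1 they were Mex3a (r = 0.98), Uchl1, Nmt2, H1f3 and Arpp19. Mex3a, an RNA-binding protein, was at 153 CPM in WT against 146 CPM in KO differentiating spermatogonia and at 0.581 CPM in WT pachytene and diplotene cells. The sums share 2 libraries and their free RNA, and r between the members themselves was -0.11.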

How the data were processed

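Each deposited matrix gives the authors' unnormalized UMI count of every gene in every barcode. Per the file headers it was written by Cell Ranger 6.1.2, and the submitters' processing notes also name Seurat 4.3 and GRCm39. The rule for calling cells is not given in the sources used here.

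Barcodes with at least 500 genes and at most 20% mitochondrial UMIs (24 ribosomal and transfer RNA genes) were kept; 8 WT and 709 KO barcodes had fewer genes, and 7 and 30 more mitochondrial UMIs. Each cell was scored for 14 classes by the mean z-score (limit 5) of log UMIs per 10000 over fixed markers, 145 of 146 found, and joined the top class if it led by 0.2 with at least 3 markers detected, a limit set after marker scores were seen. Otherwise it stayed ungated (1249 WT and 1253 KO cells). A class is thus a range of scores: near the limit, 12 WT and 66 KO cells lay just outside differentiating spermatogonia. Scrublet in Scanpy 1.11.5 marked 1 WT cell (0.0185%), so it had not worked, and 126 KO cells (1.97%); no cell was removed.

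UMIs were summed per class and library, and classes with at least 20 cells are given. Of the classes compared, WT differentiating and preleptotene cells lay mostly in cluster 1 and KO ones in clusters 17 and 21. Intervals are exact: Poisson (levels), Clopper-Pearson (shares) and conditional binomial (ratios). A count of 0 allows up to 3 counts. List genes needed 20 UMIs in both libraries together; in folds the lower side was set to at least 3 counts. Named genes were the members, a choice of listed genes, and the 5 genes most like each member, leaving out predicted, mitochondrial and ribosomal protein genes. The choice of listed genes held large ratios and also several near 1. Members, lists and markers were chosen with earlier results of these data known. RefSeq promoter windows (GRCm38.p6) were matched by symbol for 1 of the 2 members. The interval and 2-fold steps were tested on simulated sums of differentiating spermatogonia, and the other steps were not simulated. 23 alternatives were planned and 4 added after the data were seen.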

Additional observations from a re-analysis of the deposited data

How the results depend on the processing

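No paired analysis was possible because each genotype has 1 library, so no replicate could be left out either. Setting the median gene ratio to 1 (a shift of -0.50 in log2) gave Dmrtb1 546 CPM in WT and 14.3 in KO over all barcodes, and Dmrt1 14.6 and 72.3 CPM; library totals without elongating spermatid markers gave Dmrtb1 494 CPM in WT. In WT pachytene and diplotene cells Dmrtb1 was at 719 CPM with the gate margin doubled and 670 CPM in Leiden clusters. The latter lies below the 760.4 CPM of the 225 deeper cells in the cluster named round spermatids. Dmrtb1 in the gated pachytene and diplotene cells was at 721 and 754 CPM with 10% and 20% free RNA taken off. In KO differentiating spermatogonia Dmrtb1 was at 65.3 CPM in clusters (preleptotene and leptotene 20.2 CPM) and 106 CPM with 20% taken off, and Dmrt1 at 233 and 301 CPM. The cluster named differentiating also held 120 of 124 undifferentiated and 170 of 528 preleptotene and leptotene cells, so its levels are those of mixed classes.

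The Dmrtb1 log2 ratio of WT to KO in differentiating spermatogonia (1.25) was 0.92 with 10% free RNA taken off. With the Sertoli level taken off it was -0.73, a reversed sign without an interval. In preleptotene and leptotene cells (2.36) taking off the Sertoli level gave 0.13, and in zygotene cells no ratio. For Dmrt1 the ratios in these classes and in Sertoli cells stayed within their intervals under the alternatives that gave a value. Clusters left WT differentiating and preleptotene cells unnamed, so they gave ratios only for Sertoli and zygotene cells.

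Thinning set the shares of cells. At 1000 UMIs, 4000 UMIs and without thinning, Dmrtb1 was seen in 40.5%, 81.9% and 84.5% of WT pachytene and diplotene cells and 7.46%, 29.8% and 36.9% of KO differentiating spermatogonia, and Dmrt1 in 21.4%, 61.9% and 72.7% of the latter and 5.97%, 25.2% and 28.6% of KO Sertoli cells. With at least 50 UMIs, the genes past 2-fold were 1 for the DMRT family and 3 for the Sertoli list in differentiating spermatogonia, 0 for the mitosis-to-meiosis list and 3 for the Sertoli list in preleptotene and leptotene cells, and 1 for the Sertoli list in zygotene cells. With at least 1 UMI the mitosis-to-meiosis list had 2 in differentiating spermatogonia, and with the median ratio set to 1 the DMRT family had 1 in preleptotene and leptotene cells. With a pseudocount of 5 CPM, 3 of the 5 genes most like Dmrtb1 were the same. WT Sertoli and zygotene values rest on 62 and 30 cells.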

Other observations

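Dmrt1i, a separate transcript with its own row, had 62 UMIs over all WT barcodes (1.87 CPM, 1.44–2.40) and 0 in KO, which allows up to 0.107 CPM. The WT level was 17.5 times that limit, a ratio that leaves out the counting error in WT. Dmrt1i was named after its values were seen. In WT its UMIs lay in late cells, with 34 in pachytene and diplotene cells (2.47 CPM, 1.71–3.45), 15 in elongating and 4 in round spermatids, and 0 in differentiating spermatogonia, where Dmrt1 was at 275 CPM and where 0 UMIs allow up to 4.94 CPM. The Dmrt1 row was low in those late cells. 1700047F07Rik, which the RefSeq annotation places over Dmrtb1 on the opposite strand, had 1 UMI in each library.

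Mybl1, a MYB factor known for driving genes at pachytene, was at 82.0 CPM over all WT barcodes and 55.1 CPM over all KO barcodes. That is a ratio of 1.49 (1.40–1.58). Mybl1 is also a gate marker of pachytene and diplotene cells. Dmrtb1, which was selected on this gap, differed by 26.9 times (24.6–29.6). In such whole-library sums the mix of cells and the RNA per cell cannot be told apart, and a link between these genes was not tested.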
